A study of Mus musculus with 5 samples.

Results

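The numbered zinc finger protein genes (Zfp followed only by a number) were taken by symbol from the authors' lists of chromatin regions in mouse striatal neurons. All symbols of that form were kept except Zfp503, and 315 of the 19231 gene symbols with a region in any list qualified. Nuclei came from the striatum of C57BL/6 mice aged 8 weeks, were sorted on the neuronal nuclear protein NeuN, and are labelled medium spiny neurons, the GABAergic projection neurons of the striatum. The labels give no genotype or treatment. Chromatin immunoprecipitation was done with antibodies to H3K4me3 (Abcam AB8580), H3K27me3 (Millipore), H3K27ac (Abcam AB4729) and RNA polymerase II (Pol II, Abcam AB5408), with 1 library each and 1 input library. There are no replicates, so no test across samples was possible, and the exact (Clopper-Pearson) 95% intervals given below cover counting error only. They also take genes as independent, although neighbouring genes can share a region.

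H3K4me3 marks promoters, H3K27ac marks active promoters and enhancers, and H3K27me3 is deposited by Polycomb repressive complex 2. Zfp symbols mostly name C2H2 zinc finger proteins, in which arrays of zinc fingers read DNA. Many of them carry a KRAB domain, which recruits the corepressor Trim28 (KAP1) and the H3K9 methyltransferase Setdb1 to silence retroelements and imprinted loci. Such genes multiply by tandem duplication and stand in clusters of close paralogs. H3K9me3, the mark most often studied at these clusters, was not among the antibodies.

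Promoter windows from RefSeq (GRCm38.p6, 250 bases before to 50 after the start of transcription, transcribed strand) were found for 258 of the 315 genes. Those shown here stand for the chromatin patterns described below, with every CpG in capitals. Zfp827 had strong H3K27ac and Pol II, Zfp13 had the highest-scoring H3K27me3 region among these genes, and Zfp536 had a very wide one. Zfp42 had H3K27me3 alone, and Zfp429 and Zfp456 are close paralogs from chromosome 13 with H3K4me3 and H3K27me3.
Zfp827: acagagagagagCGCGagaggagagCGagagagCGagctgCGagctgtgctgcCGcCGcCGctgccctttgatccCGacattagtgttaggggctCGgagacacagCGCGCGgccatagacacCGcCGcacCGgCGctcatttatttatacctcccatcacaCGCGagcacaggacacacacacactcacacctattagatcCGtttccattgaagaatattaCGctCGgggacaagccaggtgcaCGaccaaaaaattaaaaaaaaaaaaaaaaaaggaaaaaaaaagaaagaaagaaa
Zfp13: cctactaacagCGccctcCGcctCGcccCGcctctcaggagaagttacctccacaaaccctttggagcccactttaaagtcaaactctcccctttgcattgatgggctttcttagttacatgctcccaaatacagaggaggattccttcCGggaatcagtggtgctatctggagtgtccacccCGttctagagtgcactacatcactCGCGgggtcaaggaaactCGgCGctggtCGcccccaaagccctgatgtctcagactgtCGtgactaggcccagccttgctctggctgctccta
Zfp536: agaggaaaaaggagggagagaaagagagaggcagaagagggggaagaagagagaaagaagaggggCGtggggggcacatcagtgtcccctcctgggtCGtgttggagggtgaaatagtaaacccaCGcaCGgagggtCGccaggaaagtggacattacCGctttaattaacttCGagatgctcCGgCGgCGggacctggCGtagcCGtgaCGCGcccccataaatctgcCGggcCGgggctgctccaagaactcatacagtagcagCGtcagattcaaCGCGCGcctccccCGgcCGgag
Zfp42: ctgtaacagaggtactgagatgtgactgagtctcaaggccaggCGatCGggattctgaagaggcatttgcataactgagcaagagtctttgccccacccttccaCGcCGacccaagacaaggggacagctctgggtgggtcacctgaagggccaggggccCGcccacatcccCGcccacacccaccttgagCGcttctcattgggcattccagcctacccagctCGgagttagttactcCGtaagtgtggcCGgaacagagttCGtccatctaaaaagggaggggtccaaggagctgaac
Zfp429: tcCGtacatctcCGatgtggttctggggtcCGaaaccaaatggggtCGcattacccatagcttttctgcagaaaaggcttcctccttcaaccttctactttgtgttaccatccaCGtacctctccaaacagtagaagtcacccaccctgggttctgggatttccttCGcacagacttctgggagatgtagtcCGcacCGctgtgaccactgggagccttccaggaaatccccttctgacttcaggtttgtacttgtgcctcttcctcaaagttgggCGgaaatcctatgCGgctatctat
Zfp456: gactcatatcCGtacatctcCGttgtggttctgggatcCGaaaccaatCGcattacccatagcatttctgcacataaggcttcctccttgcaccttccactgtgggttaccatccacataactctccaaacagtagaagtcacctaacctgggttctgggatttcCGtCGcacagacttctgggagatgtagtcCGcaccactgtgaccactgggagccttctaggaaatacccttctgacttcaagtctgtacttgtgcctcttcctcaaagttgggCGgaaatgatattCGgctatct
The Zfp827 window holds 23 CpGs, for an observed over expected ratio of 1.20, the highest among these genes. The ratio was 0.857 for Zfp536 (22 CpGs), 0.537 for Zfp13 (12 CpGs) and 0.441 for Zfp42 (11 CpGs). Zfp429 and Zfp456, with 10 and 9 CpGs, were 89.7% identical over the aligned window.

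H3K4me3 was listed at nearly all of these genes, and H3K27ac at most of them. An H3K4me3 region was listed for 306 of the 315 (97.1%, interval 94.6 to 98.7), against 78.3% of all symbols. H3K27ac was listed for 263 (83.5%, interval 78.9 to 87.4), against 58.6%. Pol II was listed for 174 (55.2%, interval 49.6 to 60.8), against 47.6%, a far smaller excess. H3K27me3 was listed for 105 (33.3%, interval 28.1 to 38.8), fewer than the 49.2% of all symbols. These contrasts narrowed or turned among genes with H3K4me3. There H3K27me3 was listed for 31.4% (interval 26.2 to 36.9), against 35.4% of such symbols. With H3K4me3 and no H3K27me3, H3K27ac was listed for 91.4%, against 92.6%. Pol II was listed for 66.2% of those Zfp genes (interval 59.4 to 72.6), fewer than the 79.7% of such symbols. A listed region here means a region within 3 kb of a transcription start, since the lists hold no others.

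The combinations showed where these genes departed from all symbols with a listed region, a set that includes them. Genes with no listed region are left out of both shares. Among those are 50 of the 366 protein-coding genes with a numbered Zfp symbol in the gene table. The largest class was H3K4me3 with H3K27ac and Pol II, with 138 genes (43.8%, against 39.7% of all symbols). Next came 54 genes with H3K4me3 and H3K27ac but no Pol II (17.1% against 7.09%), and 37 with H3K4me3, H3K27me3 and H3K27ac (11.7% against 4.97%). All 4 antibodies were listed at 34 genes (10.8% against 6.71%). H3K4me3 with H3K27me3 alone, the combination usually called bivalent, was found at 24 genes (7.62% against 15.5%). H3K4me3 alone was listed at 17 genes (5.40% against 3.18%). H3K27me3 alone was listed at 9 genes (2.86%), whereas 21.5% of all symbols had it. Zfp114 had H3K4me3 and Pol II, and Zfp846 had those and H3K27me3.

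**Figure D1:**
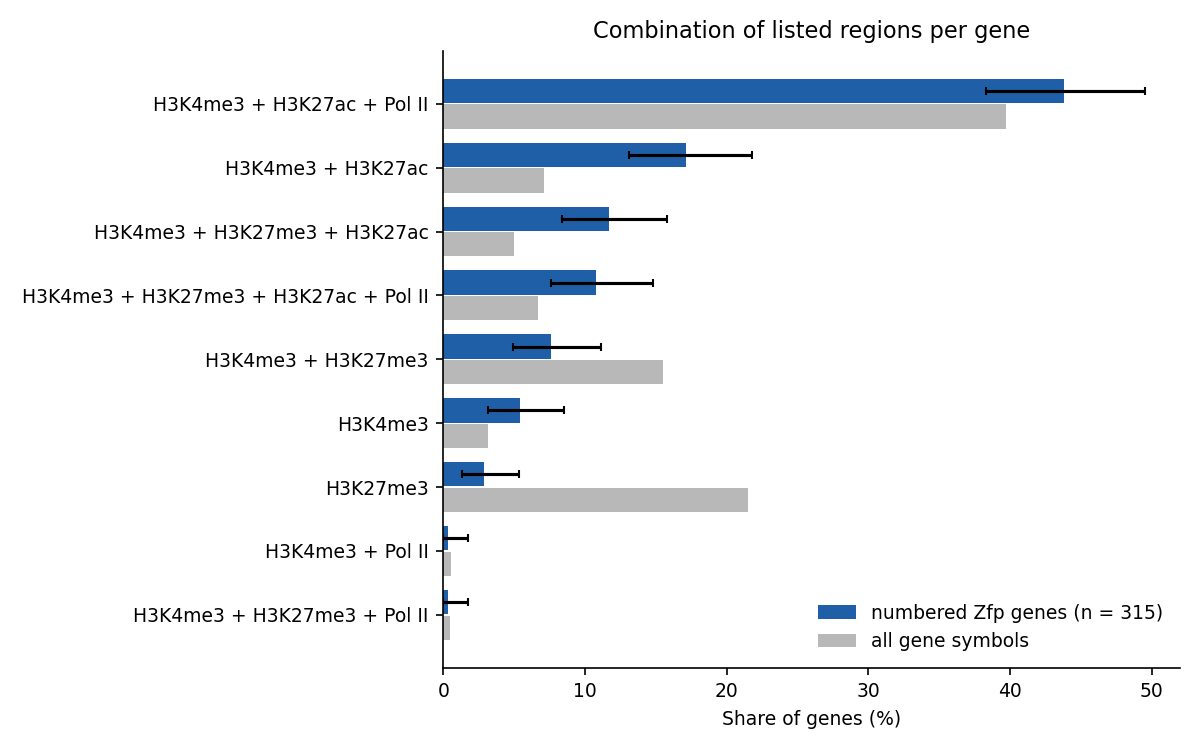
Share of genes (%, horizontal axis) with each combination of listed regions, for the 315 numbered Zfp genes (blue, with exact 95% intervals for counting error) and all 19231 symbols (grey). H3K27me3 alone is found at 2.86% of the Zfp genes and 21.5% of all symbols, and H3K4me3 with H3K27ac and no Pol II at 17.1% and 7.09%.

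The 9 genes with H3K27me3 alone were also the only ones with no H3K4me3 region. They were Zfp345, Zfp352, Zfp366, Zfp42, Zfp474, Zfp541, Zfp735, Zfp781 and Zfp957. Zfp42 encodes REX1, a marker of pluripotent cells, and its region was 6.20 kb wide. Zfp541 acts in male meiosis and had a region of 27.2 kb, while Zfp366, known from dendritic cells, had one of 6.40 kb. The widest of the 9 were at Zfp735 (41.7 kb) and Zfp345 (35.5 kb), and the narrowest at Zfp781 (3.00 kb).

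The strongest regions belonged to genes with H3K4me3, H3K27ac and Pol II together. The authors' score, whose scale is not stated, ranks regions within 1 list. By H3K27ac score the leading genes were Zfp574 (13.1), Zfp532 (11.8), Zfp827 (11.1), Zfp592 (10.4) and Zfp365 (9.37). By Pol II score they were Zfp161 (5.38), Zfp580 (5.35), Zfp143 (4.88), Zfp827 (4.87) and Zfp426 (4.80). By H3K4me3 score they were Zfp526 (13.9), Zfp646 and Zfp668 (13.5, a shared region), Zfp800 (13.3) and Zfp651 (12.3). Several of these regions are also listed for other genes, and the lists do not tell which start they belong to. The Zfp574 H3K27ac region is also listed for Grik5, and the Zfp580 Pol II region for Ccdc106 and U2af2. The H3K4me3 region of Zfp526 is also listed for Dedd2, Erf and Gsk3a, and that of Zfp646 and Zfp668 for Prss53. Zfp143 encodes a transcription factor that binds promoters, and Zfp161 is now named Zbtb14.

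Most of these regions were of ordinary width. The median H3K4me3 region was 6.20 kb wide (range 3.10 to 45.3 kb), against 6.60 kb over all symbols. The median was 5.10 kb for H3K27ac (range 2.50 to 15.6 kb) and 4.80 kb for Pol II (range 2.90 to 15.5 kb), against 5.30 and 4.90 kb. Zfp580 had the widest H3K27ac and Pol II regions, of 15.6 and 15.5 kb, both also listed for Ccdc106 and U2af2. The widest H3K4me3 regions, at Zfp574 (45.3 kb), Zfp936 (39.7 kb) and Zfp526 (38 kb), included 2 that were shared with neighbours, Zfp574 with the glutamate receptor gene Grik5, and Zfp526 with Dedd2, Erf and Gsk3a. The median score percentile of these genes was 45.2 in the H3K4me3 list, 39.2 for H3K27ac and 40.9 for Pol II, below the middle of each list.

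H3K27ac without Pol II was frequent among these genes. Of the 263 genes with H3K27ac, 91 had no Pol II region (34.6%, interval 28.9 to 40.7), against 20.7% of all symbols with H3K27ac. Where H3K27me3 was absent the share was 28.1% (54 of 192, against 15.3%), and where it was present 52.1% (37 of 71, against 42.7%). Among the 54 genes with H3K4me3 and H3K27ac alone, the highest H3K27ac scores belonged to Zfp358 (4.85), Zfp839 (4.60), Zfp629 (4.43), Zfp943 (4.39), Zfp324 (4.16) and Zfp146 (3.96).

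The missing Pol II regions went with weak H3K27ac. The median H3K27ac score was 2.75 (16.8th percentile of the list) in the 91 genes without Pol II and 4.17 (52.2nd percentile) in those with it. Over all symbols the corresponding medians were 2.70 and 4.55. In the lowest 25% of the H3K27ac list, 62 of 95 Zfp genes had no Pol II (65.3%, interval 54.8 to 74.7), against 57.2% of all symbols there. In the next 25% it was 23 of 67 (34.3%, interval 23.2 to 46.9) against 19.2%, and in the 25% above that 6 of 59 (10.2%, interval 3.82 to 20.8) against 6.03%. In the highest 25% it was 0 of 42 (upper limit 8.41%), against 0.603%. Of these 4 comparisons, the value for all symbols lay outside the Zfp interval in the second alone. Pol II scores themselves were low, with 115 of 174 genes (66.1%) under a score of 3, against 59.4% of all symbols with Pol II. A Pol II region that failed to reach the authors' threshold cannot be told apart from absent Pol II in these lists.

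**Figure D2:**
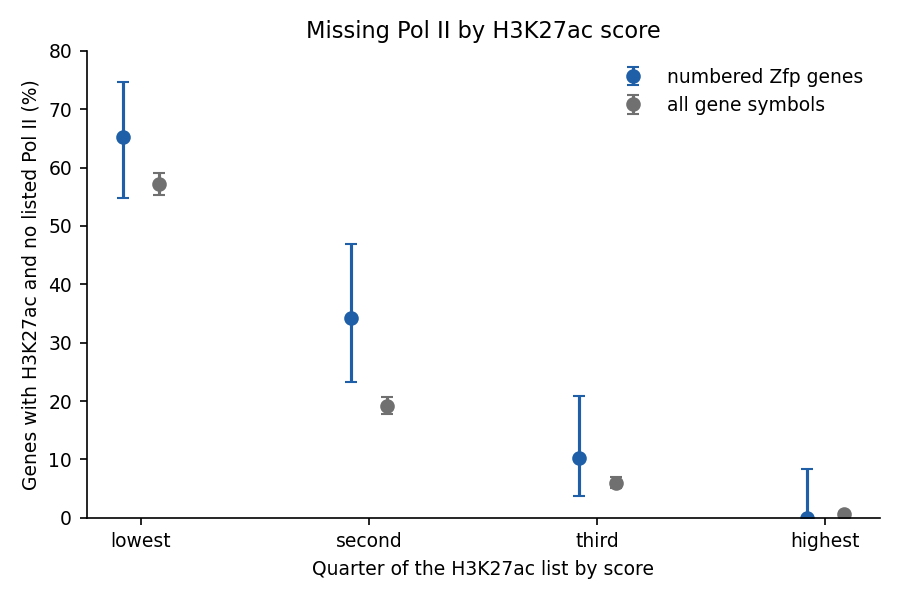
Share of genes with H3K27ac that have no listed Pol II region (%, vertical axis) by rank in the H3K27ac list, in steps of 25% by score, for numbered Zfp genes (blue) and all symbols (grey), with exact 95% intervals for counting error. The share falls from 65.3% to 0 in the Zfp genes and from 57.2% to 0.603% in all symbols.

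H3K27me3 at these genes coincided with H3K27ac more often than over all symbols. Of the 105 genes with H3K27me3, 71 had H3K27ac (67.6%, interval 57.8 to 76.4), against 23.8% of all symbols with H3K27me3. The same held for 7 of 7 Zbtb genes with H3K27me3, 5 of 5 Zscan and Zkscan genes and 4 of 7 Klf genes, so the share is not particular to numbered Zfp genes. In the 50% highest scores of each list, 71 Zfp genes kept H3K27me3, and only 9 of them had H3K27ac. In lists of equal length it was 36 of 101. The shares of all symbols under these filters are not given here. H3K4me3 was listed at 96 of the 105 (91.4%), against 56.3%. Among genes with both H3K4me3 and H3K27me3 the share with H3K27ac was 74.0% (71 of 96, interval 64.0 to 82.4), against 42.1%, and the share with Pol II 36.5% (35 of 96), against 26.0%. Whether marks listed at a gene lie in the same nuclei cannot be told from bulk chromatin.

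The positions of the regions showed that H3K27me3 mostly met these promoters at an edge. It overlapped the H3K4me3 region by at least 1 bp at 85 of the 96 genes (88.5%, against 94.3% of all symbols with both marks). An overlap of at least 0.5 of the narrower region was found at 28 (29.2%), against 68.3%. The narrower region lay wholly inside the other at 14 (14.6%), against 51.5%. The median overlap was 1.70 kb, against 4.90 kb. With H3K27ac, 52 of 71 genes had any overlap (73.2%, against 79.7%), and 6 had an overlap of at least 0.5 of the narrower region (8.45%, against 28.8%).

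The edge was mostly the upstream one. Along the direction of transcription, H3K27me3 extended only beyond the upstream edge of H3K4me3 at 77 of the 96 genes (80.2%), against 34.1% of the 5323 symbols with both marks. Where several H3K27me3 regions of a gene lay within 3 kb of its H3K4me3 region, they were taken as 1 span. H3K27me3 extended only downstream at 6 (6.25%, against 13.4%) and on both sides at 13 (13.5%, against 48.3%). In the 71 genes that also had H3K27ac the upstream share was 94.4% (67 genes), against 64.7%, so the presence of H3K27ac moved with the side in all symbols as well. In the 25 genes without H3K27ac, 10 were upstream (against 11.9% of all such symbols) and 11 on both sides (44.0%, against 72.8%). Among the 65 genes whose H3K27me3 region was shared with no other symbol the upstream share was 76.9%, against 35.4%. The lists reach 3 kb to each side of a start, so H3K27me3 that begins farther into a gene is not in them, and the effect of that window on the side was not tested.

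**Figure D3:**
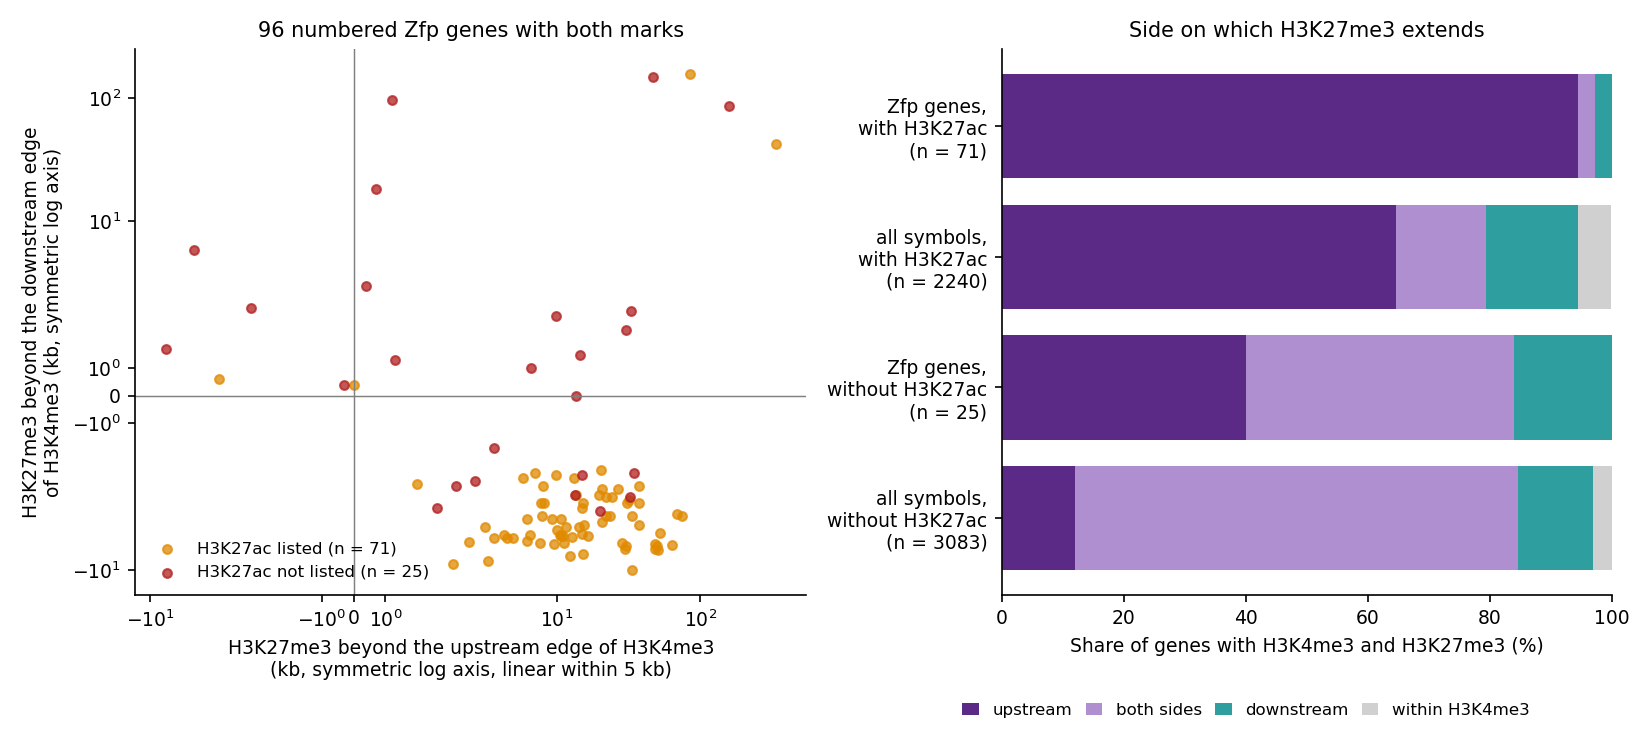
Left, how far (kb, symmetric log axes) H3K27me3 reaches beyond the upstream edge (horizontal) and the downstream edge (vertical) of the H3K4me3 region of the same gene, for the 96 Zfp genes with both marks; negative values mean that it stops short of that edge. Right, share of genes (%) by the side on which H3K27me3 extends, with and without H3K27ac; 94.4% of the Zfp genes with H3K27ac are upstream, against 64.7% of all symbols.

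Single genes show the geometry. At Zfp13 a region of 69.2 kb with a score of 10 reached 68200 bp beyond the upstream edge of H3K4me3, overlapped it by 1000 bp and stopped 4300 bp short of its downstream edge. The H3K4me3 region there (score 3.90) is also listed for Zscan10 on the opposite strand, for which the same side is downstream. At Zfp938 the region of 64.3 kb reached 63100 bp upstream and overlapped H3K4me3 by 1200 bp. At Zfp157, which also had Pol II, a region of 52.2 kb overlapped H3K4me3 by 2300 bp. At Zfp3 and Zfp637, with H3K27me3 regions of 48.2 and 33.0 kb and with H3K27ac and Pol II, the overlap was 0.

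H3K27me3 wider than 20 kb was listed at 43 of the 105 genes (41.0%, against 43.1% of all symbols with the mark), and the median width was 16.2 kb, against 16.0 kb. The genes in which such a region covered the whole H3K4me3 region on both sides were Zfp536 (253 kb), Zfp423 (249 kb), Zfp217 (202 kb), Zfp488 (102 kb), Zfp677 (41.2 kb), Zfp54 (37.9 kb), Zfp951 (29.6 kb) and Zfp872 (24.1 kb). Of these 8, Zfp423 alone had H3K27ac, at the 0.0843rd percentile of that list, and none had Pol II. Zfp703 had the widest region of all, 335 kb on the upstream side of H3K4me3, and it had H3K27ac and Pol II too. A second Zfp703 region, of 47500 bp, reached downstream and is also listed for Erlin2. The wide regions that reached only upstream were at Zfp120, Zfp13, Zfp938, Zfp551, Zfp606, Zfp157, Zfp12, Zfp263, Zfp3, Zfp11, Zfp560, Zfp259, Zfp286, Zfp846, Zfp808, Zfp879, Zfp192, Zfp637, Zfp180, Zfp870, Zfp593, Zfp945, Zfp868, Zfp160, Zfp330, Zfp493, Zfp799, Zfp946, Zfp647 and Zfp820. All of these except Zfp846, Zfp879 and Zfp820 had H3K27ac. Zfp936 had a wide region that reached only downstream, and Zfp735, Zfp345 and Zfp541 had wide regions and no H3K4me3.

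Several of the upstream regions were listed for a neighbouring gene as well. Of the 105 genes with H3K27me3, 32 shared the region with another symbol (30.5%, against 35.2%). The partners included Mmp25, Zscan10 and Ccdc64b at Zfp13, the apolipoprotein genes Apoa1, Apoa4, Apoa5 and Apoc3 at Zfp259, Mefv at Zfp263, and Grm6 at Zfp879. Vomeronasal receptor genes shared the regions of Zfp160 (Vmn1r233) and Zfp180 (Vmn1r183), and olfactory receptor genes those of Zfp192 (Olfr1366 and Olfr1535) and Zfp202 (Olfr986). Among the genes listed for these shared regions, H3K27ac was listed for 26 of the 32 Zfp genes (81.2%) and for 12 of the 39 other symbols (30.8%). Among all genes with H3K27me3 these shares were 67.6% for Zfp genes and 23.8% for all symbols. The counts take any H3K27ac or Pol II region of a gene, whether or not it overlaps the shared H3K27me3 region. Pol II was listed for 11 (34.4%) and 6 (15.4%).

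Promoter sharing was less frequent than in the whole lists. An H3K4me3 region was shared with another symbol at 48 of 306 genes (15.7%, against 28.7%), and a Pol II region at 27 of 174 (15.5%, against 31.1%). In 10 genes the H3K4me3 region was shared with another numbered Zfp gene. Such pairs included Zfp398 with Zfp786, Zfp758 with Zfp944, Zfp260 with Zfp566 and Zfp646 with Zfp668. For these pairs the lists do not tell which start a region belongs to.

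The genes were concentrated on a few chromosomes. Chromosome 7 held 82 of the 315 (26.0%), against 9.13% of all symbols, followed by chromosome 17 with 37 and chromosome 13 with 30. Chained at gaps of at most 500 kb, 180 genes formed 29 clusters of 3 or more, and 135 lay outside them. There were 9 clusters on chromosome 7, and 12 clusters had 5 or more genes.

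Pol II was listed less often inside clusters than outside them. It was found at 86 of 180 clustered genes (47.8%, interval 40.3 to 55.3), near the 47.6% of all symbols. Outside clusters it was found at 88 of 135 genes (65.2%, interval 56.5 to 73.2), above that share. The intervals take genes as independent, although clustered genes can share a Pol II region. H3K27ac was listed at 81.7% and 85.9% (58.6% of all symbols), and H3K27me3 at 33.3% in both groups (49.2% of all symbols). Among genes with H3K27ac, 63 of 147 clustered genes had no Pol II (42.9%, interval 34.7 to 51.3). Outside clusters it was 28 of 116 (24.1%, interval 16.7 to 33.0), and over all symbols with H3K27ac it was 20.7%. The share with Pol II was 47.4% in clusters of 10 or more and 48.2% in those of 3 to 9.

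The chromosome 13 cluster (mm9, 67159001 to 67913100) stood lowest for Pol II among clusters of 10 or more genes. All 17 of its genes had H3K4me3, 13 had H3K27ac, 9 had H3K27me3 and 2 had Pol II. Zfp712, Zfp708, Zfp458, Zfp595, Zfp459 and Zfp738 had H3K4me3 and H3K27ac alone. H3K27me3 was present as well at Zfp759, Zfp455, Zfp87, Zfp493 and Zfp273, while Zfp953, Zfp456, Zfp429 and Zfp58 had H3K4me3 and H3K27me3 without H3K27ac. The 2 genes with Pol II were Zfp457 and Zfp748, both with a score of 2.05, just above the lowest listed score of 2. H3K27ac scores in the cluster ran from 2.02 at Zfp708 to 3.02 at Zfp759, which is the 23.3rd percentile of that list. The 7 other symbols inside the cluster, among them Rsl1, a KRAB zinc finger gene that regulates sex-biased liver genes, included 6 with H3K27ac and 0 with Pol II.

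The cluster at 21119601 to 23807000 of chromosome 17 had 19 genes and was split among 6 combinations. H3K27me3 was listed at 11 genes, H3K27ac at 14 and Pol II at 6. The 5 genes with H3K4me3, H3K27me3 and H3K27ac were Zfp51, Zfp947, Zfp946, Zfp945 and Zfp13. Zfp677, Zfp54, Zfp760 and Zfp820 had H3K4me3 and H3K27me3 alone, and Zfp52, Zfp948, Zfp40 and Zfp213 had H3K4me3, H3K27ac and Pol II. Zfp160 and Zfp53 had all 4, Zfp943, Zfp758 and Zfp944 had H3K4me3 and H3K27ac, and Zfp229 had H3K4me3 alone. The 17 other symbols in the cluster, 11 of them vomeronasal receptor genes, had H3K27me3 in 15 cases and H3K27ac in 4.

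The second chromosome 17 cluster (32921001 to 33770100) had 11 genes, of which 6 had H3K27me3, 9 H3K27ac and 5 Pol II. Zfp871, Zfp763 and Zfp414 had H3K4me3, H3K27ac and Pol II, and Zfp799 and Zfp563 had H3K27me3 besides. Zfp870, Zfp952 and Zfp101 had H3K4me3, H3K27me3 and H3K27ac, Zfp81 had H3K4me3 and H3K27ac, Zfp472 had H3K4me3 and H3K27me3, and Zfp811 had H3K4me3.

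Clusters on chromosomes 6 and 7 carried little or no H3K27me3 and more Pol II. In the chromosome 6 cluster (47783301 to 48457300), 8 of 10 genes, Zfp398, Zfp786, Zfp282, Zfp212, Zfp956, Zfp777, Zfp746 and Zfp467, had H3K4me3, H3K27ac and Pol II, and none had H3K27me3. Zfp862 lacked Pol II, and Zfp783, a noncoding RNA gene in the gene table, had H3K4me3 alone. In the chromosome 7 cluster at 30549501 to 30958100, 8 of 14 genes had H3K4me3, H3K27ac and Pol II. The others were Zfp940, Zfp260, Zfp566 and Zfp146 without Pol II, Zfp420 with H3K4me3 alone, and Zfp568, the sole gene there with H3K27me3. No H3K27me3 was listed in the cluster at 4864001 to 5021100, where Zfp628, Zfp524, Zfp865, Zfp784 and Zfp580 had Pol II and Zfp579 did not. None was listed in that at 6104201 to 6338900 either, where Zfp787, Zfp444, Zfp667 and Zfp78 had Pol II and Zfp583 and Zfp28 did not.

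Other clusters on chromosome 7 were mixed. At 24834201 to 26039100, 7 of 14 genes had H3K4me3, H3K27ac and Pol II, Zfp180 had all 4 marks, and Zfp111, Zfp108 and Zfp109 had H3K27me3 and H3K27ac without Pol II. Zfp93 and Zfp575 had no Pol II or H3K27me3, and Zfp114 had no H3K27ac. At 134373201 to 135032600 all 10 genes had H3K27ac. Of these Zfp553, Zfp771, Zfp768, Zfp689, Zfp646 and Zfp668 had Pol II, Zfp688 had Pol II and H3K27me3, Zfp764 had H3K27me3, and Zfp747 and Zfp629 had neither. At 13009601 to 13566400, 2 of 7 genes had Pol II, Zfp329 (with H3K27me3) and Zfp446. Zfp551 and Zfp606 shared a 53.4 kb H3K27me3 region, Zfp128 and Zfp324 had H3K4me3 and H3K27ac, and Zfp110 had H3K4me3 alone. At 50400701 to 50865600, Zfp715 and Zfp719 had Pol II, Zfp658 had H3K27ac without it, and Zfp936 and Zfp819 had H3K4me3 and H3K27me3. On chromosome 9 (21872301 to 22114500), Zfp653, Zfp809 and Zfp810 had Pol II, Zfp599 had H3K27ac without it, and Zfp872 had H3K4me3 and H3K27me3.

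**Figure D4:**
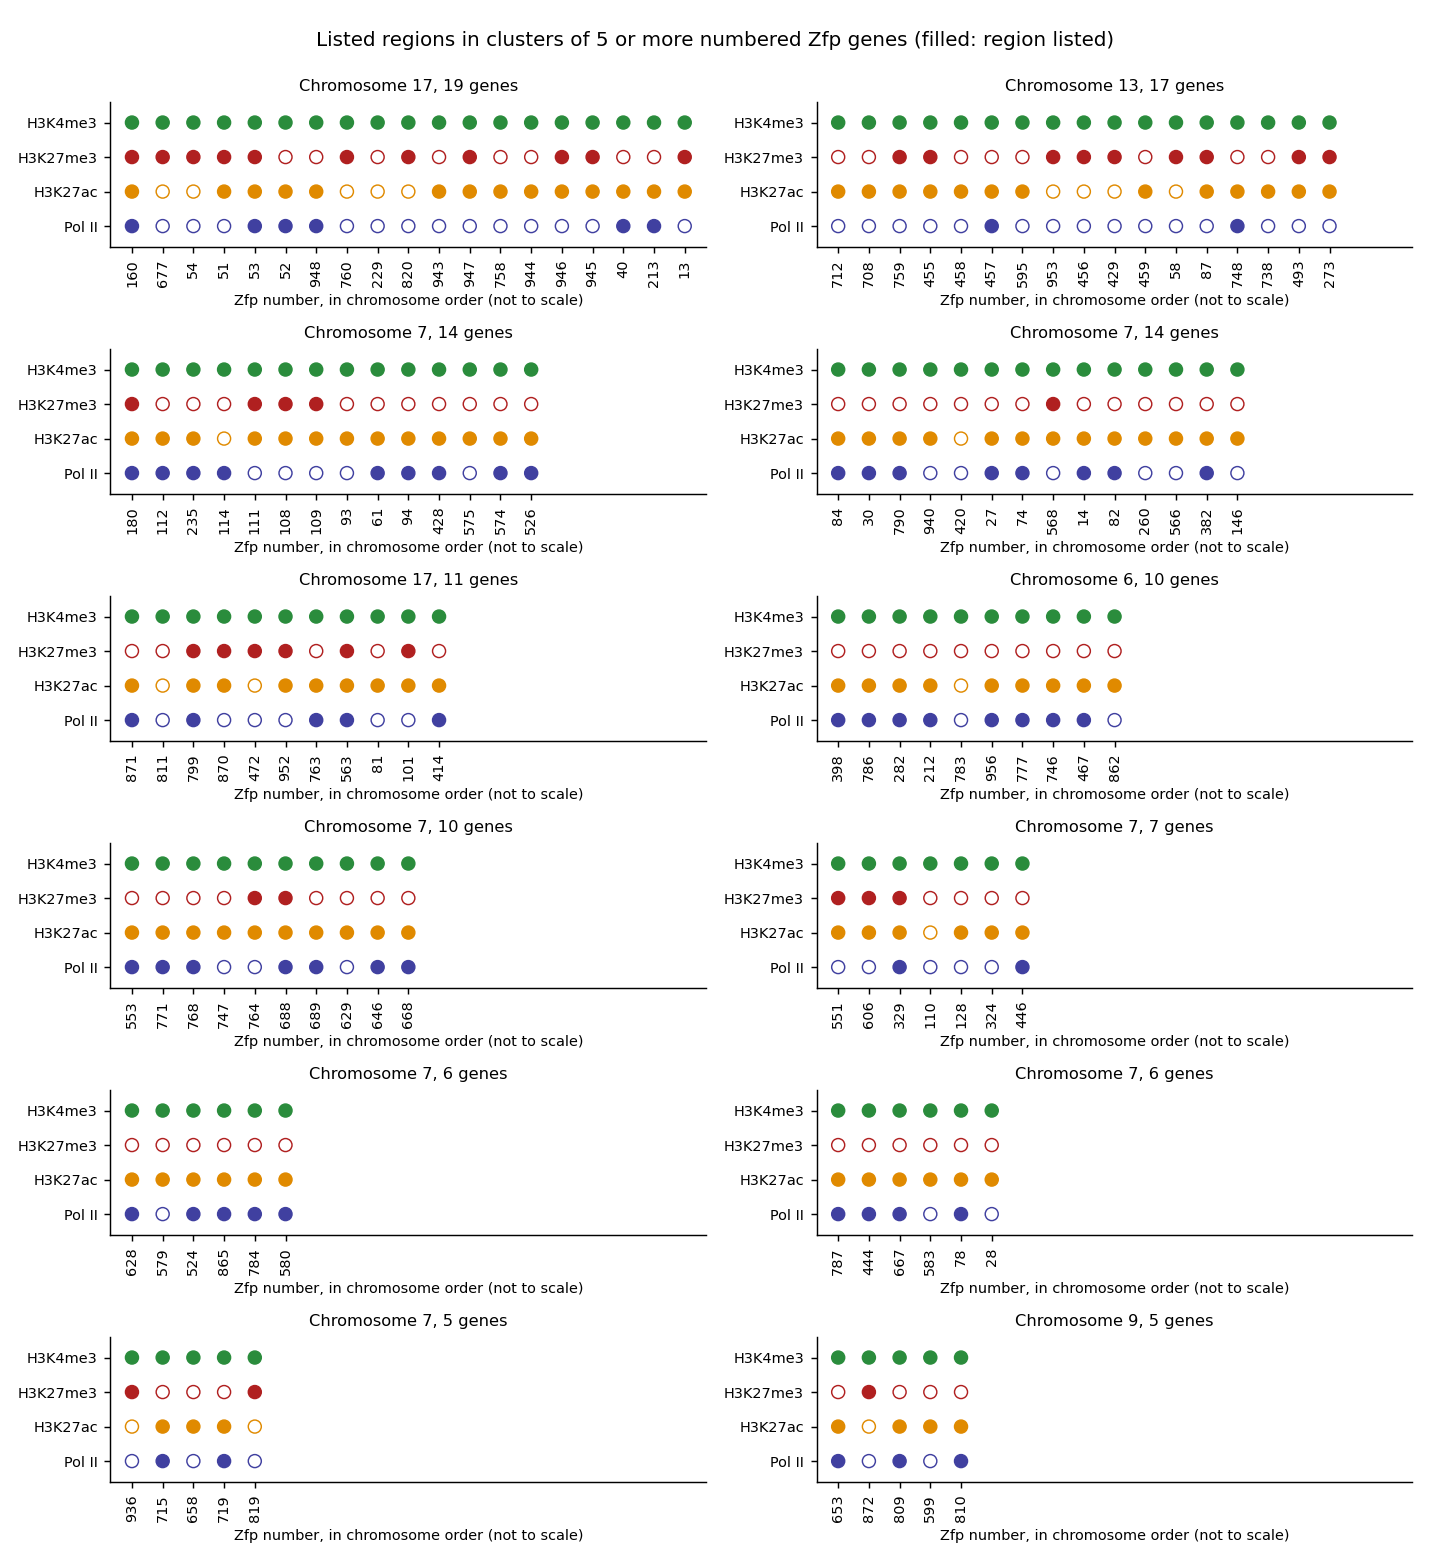
Listed regions in the 12 clusters with 5 or more numbered Zfp genes; columns are genes in chromosome order (Zfp number, not to scale), rows are antibodies, and filled circles mark a listed region. Pol II is listed at 2 of 17 genes of the chromosome 13 cluster and at 8 of 10 genes of the chromosome 6 cluster.

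Reads from near-identical copies can be lost or misplaced in such clusters. The promoter windows, 1 per gene, aligned over their whole length had a median identity of 58.3% for pairs on different chromosomes, with a maximum of 70.7%. In the chromosome 13 cluster the median was 62.0% over 105 pairs. Only 8 of 258 genes had a partner at 80% or more: Zfp758 and Zfp943 (97.3%), Zfp429 and Zfp456 (89.7%), Zfp747 and Zfp764 (88.3%), and Zfp457 and Zfp759 (83.0%). Of these 8, Zfp457 had Pol II. How reads with several matches were treated is not given in the sources used here, so the values of these 8 genes are uncertain. The comparison does not clear the other genes. It covered 1 short window per gene for 258 of the 315 genes, and no symbols outside the numbered Zfp genes.

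Promoter CpG content, averaged over a gene's windows, moved with the listed regions. The median observed over expected ratio was 0.739 in genes with Pol II (18 CpGs per window) and 0.564 in those without (11 CpGs). It was 0.749 with H3K4me3, H3K27ac and Pol II, 0.718 with all 4 antibodies, 0.640 at promoters with H3K4me3 and H3K27ac alone, and 0.533 at those with H3K4me3 and H3K27me3. Genes with H3K27me3 had a median of 0.529 and those without it 0.707. Over all Zfp genes with a window it was 0.657, near the 0.647 of protein-coding symbols in the lists, whereas protein-coding symbols with Pol II had 0.804. Among clustered genes the median was 0.616. For genes outside clusters the value is void, since 77.8% of them had a window and 80% was required. Void for the same reason are the classes with H3K4me3, H3K27me3 and H3K27ac (73.0%), H3K4me3 alone (70.6%) and H3K27me3 alone (77.8%). The contrasts by Pol II and by H3K27me3 are void over all symbols, with windows for 75.8 to 79.2% of them. Whether these contrasts are particular to Zfp genes was not tested.

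**Figure D5:**
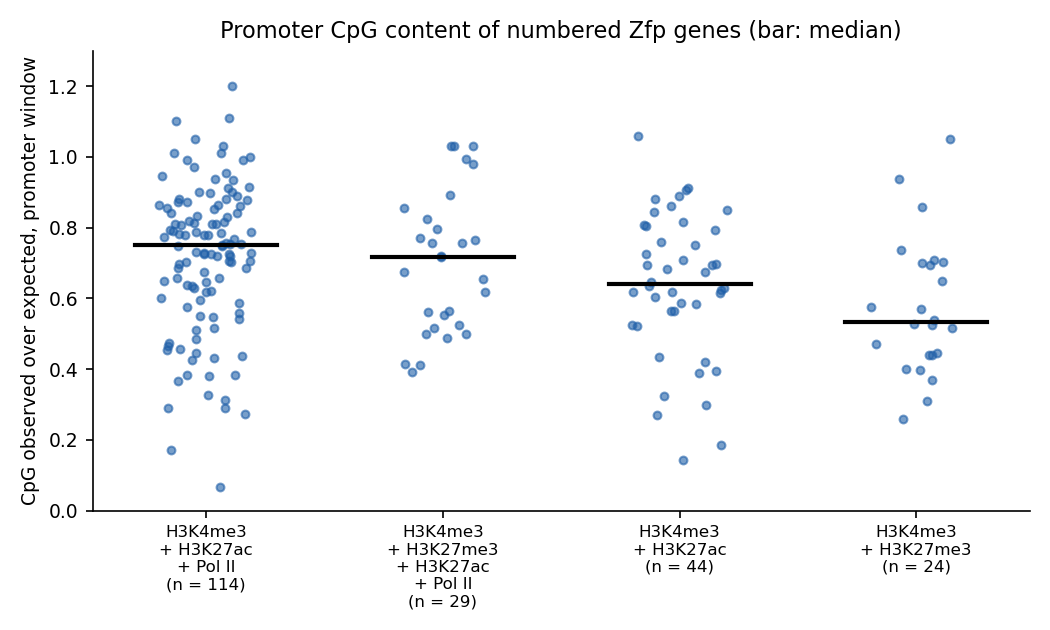
CpG observed over expected ratio (vertical axis) of the RefSeq promoter windows of numbered Zfp genes in 4 combinations of listed regions; each point is a gene and bars are medians. Among these 4 classes the medians run from 0.749 (H3K4me3, H3K27ac and Pol II) to 0.533 (H3K4me3 and H3K27me3), with wide overlap between them. Classes whose value is void are not shown.

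Short motifs were searched on both strands, counting a gene where any of its windows held a match (321 windows of 258 genes). The ETS motif CCGGAAG was found for 61 (23.6%, interval 18.6 to 29.3), against 14.5% of protein-coding symbols in the lists and 9.93% of the 27025 genes in the table. The NRF1 motif GCGCANGC was in 17.8%, near the 17% of protein-coding listed symbols (11.2% of the table). The YY1 motif AAGATGG was in 10.9% (interval 7.33 to 15.3), against 7.56% of protein-coding listed symbols and 7.28% of the table. The ZNF143 core ACTACAA was in 6.59% (interval 3.88 to 10.3), against 4.30% and 3.78%. The YY1 and ZNF143 intervals both hold the share of protein-coding listed symbols. TATAAA was in 8.53% (interval 5.42 to 12.6), against 13.2% and 15.7%. The table also holds genes outside the lists, with a lower median CpG ratio (0.390). Overlapping motif matches were found in 2 windows. A match describes these letters and is no evidence of binding.

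All 10 genes of a list with known roles in neural and glial development had H3K4me3, 8 had H3K27ac, 7 Pol II and 5 H3K27me3. Of all symbols, 78.3% had H3K4me3, 58.6% H3K27ac, 47.6% Pol II and 49.2% H3K27me3, the last being near the share here. Zfp462, Zfp238 (now Zbtb18, a repressor in cortical neurons), Zfp335, Zfp365 and Zfp191 (now Zfp24, which acts in myelination) had H3K4me3, H3K27ac and Pol II. Zfp536, a repressor of neuronal differentiation, and Zfp488, which promotes oligodendrocyte differentiation, had H3K4me3 and H3K27me3. Zfp423, which acts in cerebellar development, had H3K27ac besides, and Zfp521 and Zfp703 had all 4. Zfp521 differed from most of the family in that its 7.90 kb H3K27me3 region covered the whole H3K4me3 region of 7.5 kb.

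Of 10 genes known from pluripotency, imprinting or retroelement silencing, 8 had H3K4me3, 6 H3K27ac, 5 H3K27me3 and 3 Pol II. The first 3 counts are close to the shares of all symbols (78.3%, 58.6% and 49.2%), and 47.6% of all symbols had Pol II. Zfp809, which silences murine leukaemia virus in embryonic cells, had H3K4me3, H3K27ac (score 3.08) and Pol II (2.18), as did Zfp281 and Zfp661. Zfp57, which protects imprints, had H3K4me3 (score 3.45) and H3K27me3 (3.76) without H3K27ac, and Zfp819 had the same pair. Zfp445, which also acts at imprints, and Zfp568, a repressor of a placental Igf2 transcript, had H3K4me3, H3K27me3 and H3K27ac. Zfp708 had H3K4me3 and H3K27ac, and Zfp932 had no region. The shares of all symbols count only symbols with a listed region, so the sets differ in this.

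Among 10 broadly expressed regulators, all had H3K4me3, and 8 had both H3K27ac and Pol II. Of all symbols, 78.3% had H3K4me3, 58.6% H3K27ac and 47.6% Pol II. Zfp148, Zfp207, Zfp384, Zfp410, Zfp711, Zfp106 and Zfp143 had no H3K27me3, and Zfp64 had a 5.20 kb H3K27me3 region besides. Zfp36, which encodes the mRNA decay factor tristetraprolin, and Zfp217 had H3K27me3 over H3K4me3 promoters that lacked the other marks. The Zfp36 region is also listed for Plekhg2. Of 8 genes known mainly from other tissues, 4 had H3K27me3, near the 49.2% of all symbols (Zfp541, Zfp366, Zfp474 and Zfp663), and 2 had H3K27ac and Pol II (Zfp467 and Zfp438). Zfp750, an epidermal regulator, and Zfp648 had no region, whereas the shares of all symbols count only symbols with a listed region.

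A fixed list of KRAB corepressors and other chromatin regulators mostly had H3K27ac and Pol II regions. Besides Trim28 and Setdb1 it holds genes such as Ehmt1, Ehmt2, Suv39h1, Suv39h2, Dnmt1, Dnmt3a and Setd2. The counts are therefore not those of the KRAB corepressor machinery alone. Of the 22 genes, all had H3K4me3, 18 had H3K27ac, 17 Pol II and 4 H3K27me3. Of all symbols, 78.3%, 58.6%, 47.6% and 49.2% did. Trim28 had an H3K4me3 region of 25600 bp, with H3K27ac (score 5.67) and Pol II. Setdb1, Dnmt3b and Uhrf1 had H3K4me3 and H3K27me3 alone, Cbx1 had H3K27ac besides, and Hdac1 had H3K4me3 alone.

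Of 3 other zinc finger families, Zbtb genes differed in Pol II. Families were split by the listed symbol, so Zfp161, Zfp238 and Zfp295 (now Zbtb14, Zbtb18 and Zbtb21) count as numbered Zfp genes. So do Zfp187, Zfp192 and Zfp498 (now Zscan26, Zkscan8 and Zscan25). All of these had Pol II. All 31 Zbtb genes carried H3K4me3 and H3K27ac regions, and a Pol II region was listed for 27 (87.1%, interval 70.2 to 96.4), against 55.2% of numbered Zfp genes. Pol II was listed for 9 of 18 Zscan and Zkscan genes (interval 26.0 to 74.0%) and 10 of 16 Klf genes (interval 35.4 to 84.8%), and both intervals hold 55.2%. H3K27ac without Pol II was found at 4 of 31 Zbtb genes (12.9%), 7 of 16 Zscan and Zkscan genes (43.8%, interval 19.8 to 70.1) and 3 of 13 Klf genes (23.1%, interval 5.04 to 53.8). The last 2 intervals hold the 34.6% of numbered Zfp genes.

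The cell type was checked on fixed markers. All 9 neuronal and medium spiny neuron markers had H3K4me3, H3K27ac and Pol II without H3K27me3. No astrocyte, microglial or endothelial marker had H3K27ac. Among oligodendrocyte markers, Mbp had H3K27ac and Pol II, Mog had H3K4me3 alone, and Olig2 had H3K4me3 and H3K27me3. A contribution of other cells to the regions at Zfp genes was not tested. In the gene table, 366 protein-coding genes have a numbered Zfp symbol, and 50 of them had no region listed. Of those 50, 11 lie on chromosome 4 and 10 on chromosome 2. The lists do not show which transcripts were searched, so an unlisted gene cannot be told from one that was not examined.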

How the data were processed

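The submitters' processing notes name the mm9 build, MACS 1.4 and Bowtie 0.12.7 without saying what each did. The authors deposited, per antibody, a list of regions over input near annotated transcription starts, each with a score, a strand and a gene symbol. The scale of the deposited score is not stated, so it was used only to rank or filter within 1 list. No listed score was under 2 and no region under 2500 bp, and bounds lay on a 100 bp grid. Read depth is unknown. The input enters only through the lists.

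A mark was assigned to every symbol that a list names. The widest region of a gene gives its width, and the best-scoring its score. Where a region was listed with several scores (45 regions) the higher was kept, and lines without a symbol were left out. Positions are mm9, counted from 1. Clusters were chained at midpoint gaps of at most 500 kb with at least 3 genes. Symbols were matched to a GRCm38.p6 gene table, where all 315 were found, 11 under another symbol. Promoter windows were used for sequence only. The splits by KRAB domain and finger number were not run, for want of a protein table.

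The members and lists were chosen with earlier results of these data known. Genes were named by rule: the 5 highest-scoring and 5 widest per antibody, leading members of combinations, members of clusters of 5 or more, the lists by role, members without H3K4me3, and those with H3K27me3 wider than 20 kb. Other names, such as single examples and shared pairs, were chosen after their values were seen, and some that the rule would give are not named. Not every marker examined is reported here. The counting, clustering and overlap steps were tested on simulated data. Tools were Biopython 1.88, scipy 1.17.1, matplotlib 3.10.9, pandas 2.3.3, numpy 2.4.6 and Python 3.11.15.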

Additional observations from a re-analysis of the deposited data

How the results depend on the processing

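With 1 library per antibody, no result has a replicate check. No paired analysis was possible because each antibody has 1 library. When each list was reduced to its 50% highest scores, 150 Zfp genes had H3K4me3, 103 H3K27ac and 75 Pol II. Then 51 had H3K4me3, H3K27ac and Pol II without H3K27me3, and 43 had H3K27ac without Pol II. Of 71 genes with H3K27me3, 9 had H3K27ac. With lists of equal length (7799 regions), 191 had H3K4me3, 40 had H3K27ac without Pol II and 36 of 101 genes with H3K27me3 had H3K27ac. With regions scoring at least 3, an alternative chosen after seeing the data, 59 had Pol II. Requiring regions to share 0.5 of the narrower left 6 genes with H3K27me3 and H3K27ac. Requiring 5 genes per cluster left 12 clusters. These alternatives shorten the lists or tighten a definition, so fewer genes pass by construction. The other 38 of 50 alternative values stayed within 1.5 times the reported count or, for widths and CpG content, within the spread. They cover symbols with suffixes, protein-coding genes only, gaps of 250 and 1000 kb, other width definitions and counts of CpGs. The alternatives for KRAB domain and finger number were not run. The positions of H3K27me3 relative to H3K4me3, the split by H3K27ac score and the motif search had no alternative beyond those given beside them; the split by score and the motifs were chosen after seeing the data.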
